A study of Mus musculus with 4 samples.

Results

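The Hippo kinase cascade and its upstream regulators were followed through 10 mouse genes. These were the kinases Lats1, Lats2, Stk3 and Stk4, the scaffold Sav1, and the membrane and junction proteins Nf2, Frmd6, Wwc1, Amot and Amotl1. Every probe outside the controls whose gene name on the array was one of these symbols was kept, which gave 26 probes of the 41174 on the array, where 27745 distinct gene names occur. Lats1 and Wwc1 had 1 probe each, Sav1, Nf2 and Amotl1 had 2 each, Frmd6 and Amot had 3 each, and Lats2, Stk3 and Stk4 had 4 each. Probes of a gene read the same RNA sample and are not replicates of a condition.

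RNA came from embryonic fibroblasts (MEFs) of C57BL/6J mice labelled Lats2-/- (KO) or Lats2+/+ (WT). In each genotype a low density culture, taken at 48 h while subconfluent, was compared on 2-colour arrays with a high density culture taken after 3 to 5 days, so that time in culture changed together with density. Each genotype had 2 arrays with the Cy3 and Cy5 dyes exchanged. Such a pair was counted as 1 replicate, and the labels do not say whether its arrays held the same RNA extracts. The labels also give neither the number of embryos or cell lines behind a genotype nor the part of Lats2 that the mutant allele lacks, and the source field writes LAT2 in place of Lats2. Both WT arrays lay on 1 slide and the KO arrays on 2 other slides scanned at other times, so slide and scan cannot be told apart from genotype. Ratios of high over low density were formed within an array and do not cross slides.

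Depending on the channel, 52.8% to 67.7% of features stood well above background, and 0 features were saturated. All 10 fibroblast markers searched, collagens and Pdgfra among them, were well above background in every condition. Of 6 epithelial markers at most 1 was detected (Krt18, in the low density WT culture), with Epcam and Cdh1 not detected, and of 5 endothelial markers at most 1 (Kdr, in the same culture). Among 6 macrophage markers 2 or 3 were detected, and Ptprc, Adgre1 and Itgam were not. The summed normalized signal of the macrophage list ranged from 777 to 985 in WT and from 502 to 667 in KO. A list of 5 muscle markers, of which the contractile actin gene Acta2 was detected in every condition, Myh11 in KO only, and Des, Myod1 and Myog in none, summed to 201000 and 153800 in low density WT and to 60340 and 39950 in high density WT, against 138500 and 133300, then 100800 and 95080, in KO. The part of these markers in the results below was not tested.

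In the Hippo pathway the Ste20-like kinases MST1 (Stk4) and MST2 (Stk3), held by the scaffold SAV1, phosphorylate and activate LATS1 and LATS2. The LATS kinases then phosphorylate the coactivators YAP and TAZ, which keeps them out of the nucleus and away from the TEAD transcription factors. Merlin (Nf2), FRMD6 and KIBRA (Wwc1) act upstream at the membrane, and proteins of the angiomotin family bind YAP at junctions and promote its phosphorylation. Crowding of fibroblasts is a well known stimulus of the cascade, which is largely controlled by phosphorylation. The arrays measured RNA only. LATS2 is itself known as a transcriptional target of YAP and TEAD.

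Promoter sequences of the members were searched for the core of the TEAD recognition motif, GGAATG on either strand, LATS2 being a known target. The RefSeq table (assembly GRCm38.p6) held 11 promoters of 9 members, each running from 250 bases before a transcript start to 50 bases after it. Matches were found in 2 of these 11 (18.2%), against 14.7% of all 32851 promoters. They are shown in windows of 30 bases, read along the strand of the gene, with the match in capitals.
Lats2, chr14:57746102-57746131, minus strand: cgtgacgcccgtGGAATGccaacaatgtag
Sav1, chr12:69987091-69987120, minus strand: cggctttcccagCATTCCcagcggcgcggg
The Lats2 match begins at base 5 after the start. The Sav1 match, on the opposite strand, begins 106 bases before it. A match of these letters is a description of the sequence and not evidence of binding. Member promoters held a median of 22 CG dinucleotides, against 7 over all promoters.

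A change was counted where the log2 ratio, averaged over both arrays or dyes, reached a size of 1 (2-fold) and had the same sign in each of them. With 1 replicate per group this is a rule of size and not a test. In WT, 3 of 24 member probes tested were counted, Amot upward and 2 Lats2 probes downward, against 13.3% of all probes (7.63% upward and 5.71% downward). In KO, 5 of 24 were counted, all downward and all from Lats2 and Wwc1, against 9.63% of all probes (5.9% upward and 3.73% downward). The median log2 ratio of the members was -0.29 in WT and -0.34 in KO, against 0.01 over all probes in either genotype. Above 0 lay 6 of 24 member probes in WT and 9 of 24 in KO, against 50.8% and 51.1% of all probes. In these bulk RNA samples fewer cells of a kind and less RNA per cell cannot be told apart.

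Between genotypes 5 of 24 member probes were counted at low density, all higher in KO (Lats1, Lats2 and Wwc1), against 13.9% of all probes (6.87% higher and 7.05% lower). At high density 5 of 24 were counted, 3 higher (Lats1 and Lats2) and 2 lower (a Lats2 and an Stk3 probe), against 13% of all probes (6.42% higher and 6.61% lower). This high density count rose to 8 without the arrays numbered 2 (15.1% of all probes). It fell without those numbered 1 (12.2% of all probes). The median genotype ratio of the members was 0.38 in the low and 0.35 in the high density cultures, against 0.04 over all probes in both. Above 0 lay 16 of 24 member probes at low and 14 of 24 at high density, against 52.7% and 53.2% of all probes. Subtracting the WT from the KO density effect gave a difference past this size for 1 of 23 member probes (Amot, downward), against 7.99% of all probes (3.77% upward and 4.22% downward). These comparisons share channels, so their counts are not independent of each other. The offset of 50 added to the signals draws the ratios of dim probes toward 0. Without it 6 member probes were counted in WT for density, against 21.3% of all probes, and 8 at each density between genotypes, against 22.6% (low) and 20.9% (high). With the scanner software's processed signal 11 member probes were counted in WT and 10 in KO for density, against 25.8% and 20.6% of all probes, and 8 at low and 10 at high density between genotypes, against 27.9% and 25.5%.

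**Figure D1:**
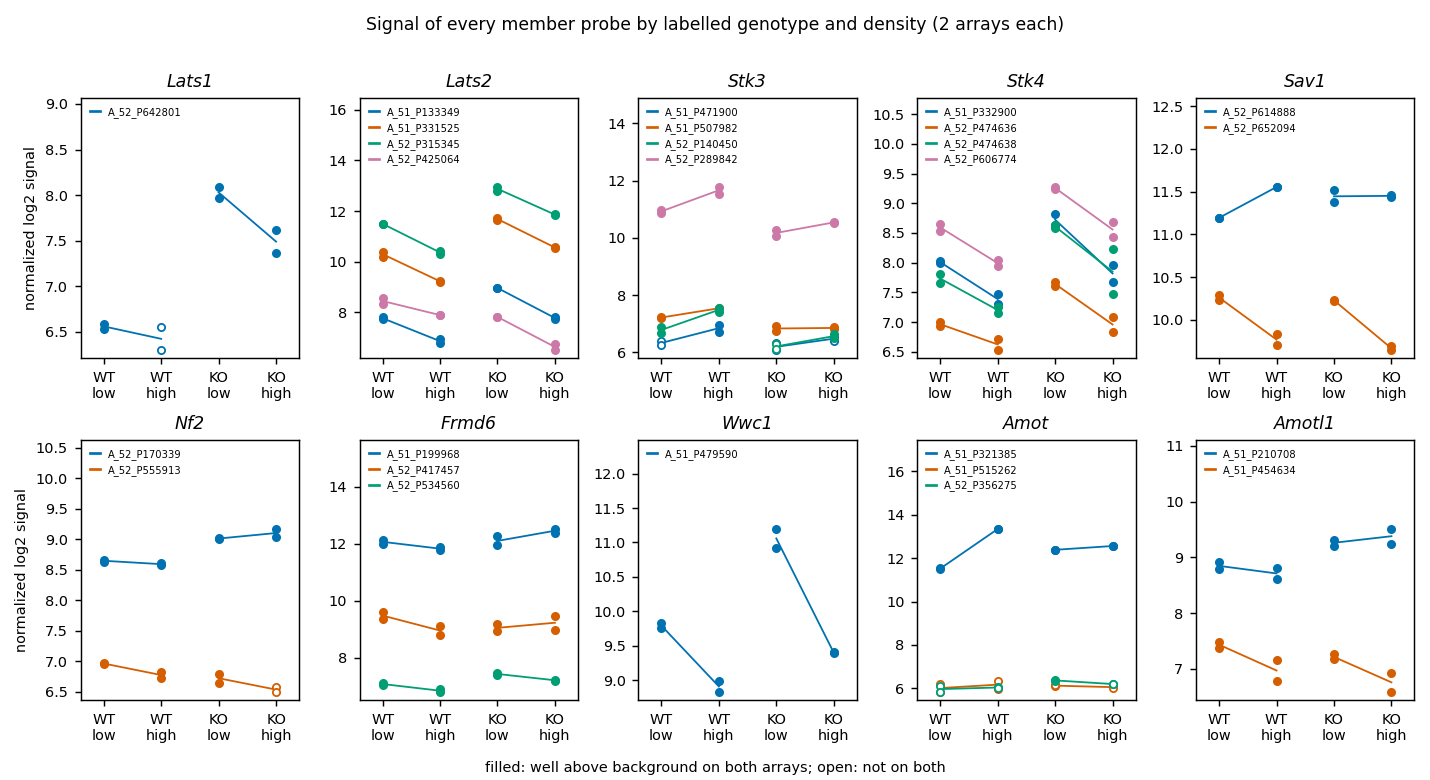
Normalized log2 signal (vertical axis, a scale of its own in each panel) of all 26 probes of the 10 genes in the low and high density cultures of each labelled genotype. Points are single arrays, lines join the means of 2 arrays, and open points mark conditions not well above background on both arrays. Levels of different probes cannot be compared. The Lats2 and Stk4 lines slope down in both genotypes, the line of Amot probe A_51_P321385 rises steeply in WT and is nearly level in KO, and the Wwc1 line is steepest in KO.

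Lats2, the kinase named in the genotype label, was read by 4 probes on the minus strand of chromosome 14 (build mm8), each detected well above background in the 8 channels. At its brightest probe, A_52_P315345 (56644080 to 56644139; it overlaps A_51_P331525, 56644108 to 56644167), the normalized log2 signals were 11.50 and 11.49 in low density WT, 10.32 and 10.41 in high density WT, 12.95 and 12.80 in low density KO, and 11.86 and 11.85 in high density KO. All 4 conditions were thus apart from each other, with the low density KO culture highest and the high density WT culture lowest. The direction between genotypes goes against the label of a knockout at this probe, as it did at A_51_P331525 and at A_51_P133349 (56645246 to 56645305). The fourth probe, A_52_P425064 (56676512 to 56676571), lies upstream of the other three on the gene's strand and is annotated to an alternatively spliced mRNA, LATS2C. Its signals were 8.35 and 8.55 in low density WT, 7.89 and 7.89 in high density WT, 7.80 and 7.84 in low density KO, and 6.51 and 6.76 in high density KO. Here the KO arrays lay below the WT arrays at each density, by log2 ratios of -0.63 ± 0.12 (SD, n = 2 dyes) at low and -1.26 ± 0.18 at high density. With the processed signal these ratios were -0.99 and -2.30. A probe outside the deleted part of an allele does not check a label, and the deleted part is not given in the sources used here. The study also examined Lats2 protein in such MEFs by western blotting, which is not analysed here. Directions between genotypes below therefore rest on the labels.

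Unlike the genotype difference, the density effect ran the same way at all 4 Lats2 probes. In WT the log2 ratios of high over low density were -1.13 ± 0.07 (SD, n = 2 arrays) for A_52_P315345, -1.07 ± 0.16 for A_51_P331525, -0.91 ± 0.05 for A_51_P133349 and -0.56 ± 0.14 for A_52_P425064. The KO ratios were -1.02 ± 0.10, -1.13 ± 0.09, -1.18 ± 0.02 and -1.18 ± 0.16 in the same order. Lats2 signal thus fell past 2-fold at 4 of 4 probes in KO and 2 of 4 in WT, with every single array below 0. With the processed signal A_51_P133349 gave -1.75 in WT, past the size. With the series matrix values A_52_P425064 gave -2.18 in KO. Of the 6 counts, 2 rested on a pair with an array just short of the size: A_51_P331525 gave -0.96 on WT array 1 and A_52_P315345 gave -0.95 on KO array 2. The 3 neighbouring probes differed between the genotypes' density effects by -0.28 to 0.11, values whose sign turned at each of them under another processing (to 0.23 for A_51_P133349 with the processed signal), whereas the upstream probe fell further in KO, by -0.63 ± 0.30. That difference was past 2-fold with the processed signal, at -1.33.

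Lats1, the paralogous kinase, had a single probe (A_52_P642801, chromosome 10, 7403063 to 7403122, plus strand). Its signals were 6.53 and 6.59 in low density WT and 6.30 and 6.55 in high density WT, where it was not well above background on either array, against 8.09 and 7.97 in low density KO and 7.62 and 7.36 in high density KO. The WT values overlapped each other and lay below all KO values. Lats1 was thus higher in KO, 2.77-fold at low density (log2 ratio 1.47 ± 0.12) and at least 2.09-fold at high density. The log2 ratio at high density was at least 1.32 between the arrays numbered 1 and at least 0.82 between those numbered 2, so whether the latter pair reached the size cannot be said. With the processed signal the log2 ratio at low density was 2.57. Its density effect was -0.54 ± 0.09 in KO, short of the size.

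The upstream kinases Stk3 and Stk4, which share the task of activating the LATS kinases, lay on opposite sides of 0 in each comparison of density and of genotype, save for an Stk3 probe near 0 in KO. Stk3 (chromosome 15, minus strand) was brightest at A_52_P289842 (34820397 to 34820456), with 10.87 and 10.98 in low density WT, 11.55 and 11.78 in high density WT, 10.08 and 10.26 in low density KO, and 10.55 and 10.53 in high density KO. None of the conditions overlapped at this probe, and both WT cultures lay above both KO cultures. The 3 Stk3 probes detected at both densities in WT were above 0, by 0.32 to 0.74, and in KO gave 0.02 to 0.37, of which the lowest (A_51_P507982) came to -0.01 with the processed signal and to -0.10 on KO array 1. With the same processed signal A_52_P140450, at 0.70 in WT and 0.36 in KO, gave 1.22 and 1.92, which turns its difference between genotypes from -0.34 to 0.70. At high density these 3 probes were lower in KO by log2 ratios of -0.69 to -1.12, and A_52_P289842 alone passed the size (-1.12 ± 0.17). Without scaling between arrays it gave -0.85, under the size, whereas with the processed signal all 3 passed it, from -1.29 to -1.87. Probe A_51_P471900 reads a cDNA that the annotation calls unclassifiable and was well above background in 3 of 8 channels. It was not detected in low density WT, where its rise with density is at least 1.43-fold.

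Stk4 (chromosome 2, plus strand) was well above background in all 8 channels at each of its 4 probes. At A_52_P606774 (163846572 to 163846631) the signals were 8.53 and 8.66 in low density WT, 7.95 and 8.04 in high density WT, 9.24 and 9.27 in low density KO, and 8.69 and 8.43 in high density KO. The low density WT and high density KO values overlapped, and the other neighbours in the order were apart. Density ratios lay below 0 at 4 of 4 probes and on every array, between -0.34 and -0.62 in WT and between -0.68 and -0.90 in KO, none past the size. KO arrays were higher at all 4 probes, by 0.66 to 0.88 at low and 0.34 to 0.65 at high density, where the arrays numbered 1 gave 0.55 to 1.08 and those numbered 2 gave 0.12 to 0.39. The KO arrays were furthest apart among the Stk4 probes at A_52_P474638 (163775179 to 163777974), whose density ratios were -0.36 and -1.16. With the processed signal 3 of the 4 probes passed 2-fold downward in each genotype, from -1.01 to -1.12 in WT and from -1.14 to -1.36 in KO.

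Sav1, the scaffold that couples the MST kinases to LATS, was read by 2 probes on the minus strand of chromosome 12 that disagreed in direction in WT. A_52_P614888 (70883797 to 70883856) gave 11.20 and 11.19 in low density WT and 11.55 and 11.55 in high density WT, against 11.38 and 11.51, then 11.46 and 11.44, in KO. The probe was higher at high density in WT by 0.36 on each array after rounding, and differed by 0.01 ± 0.11 in KO, where its conditions overlapped. A_52_P652094 (70884842 to 70884901) went the other way, by -0.49 ± 0.04 in WT and -0.56 ± 0.04 in KO. With median centring in place of loess A_52_P614888 came to 0.14 in WT and -0.32 in KO. Neither probe passed the size in any comparison, and the genotype ratios of both lay between -0.10 and 0.25.

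**Figure D2:**
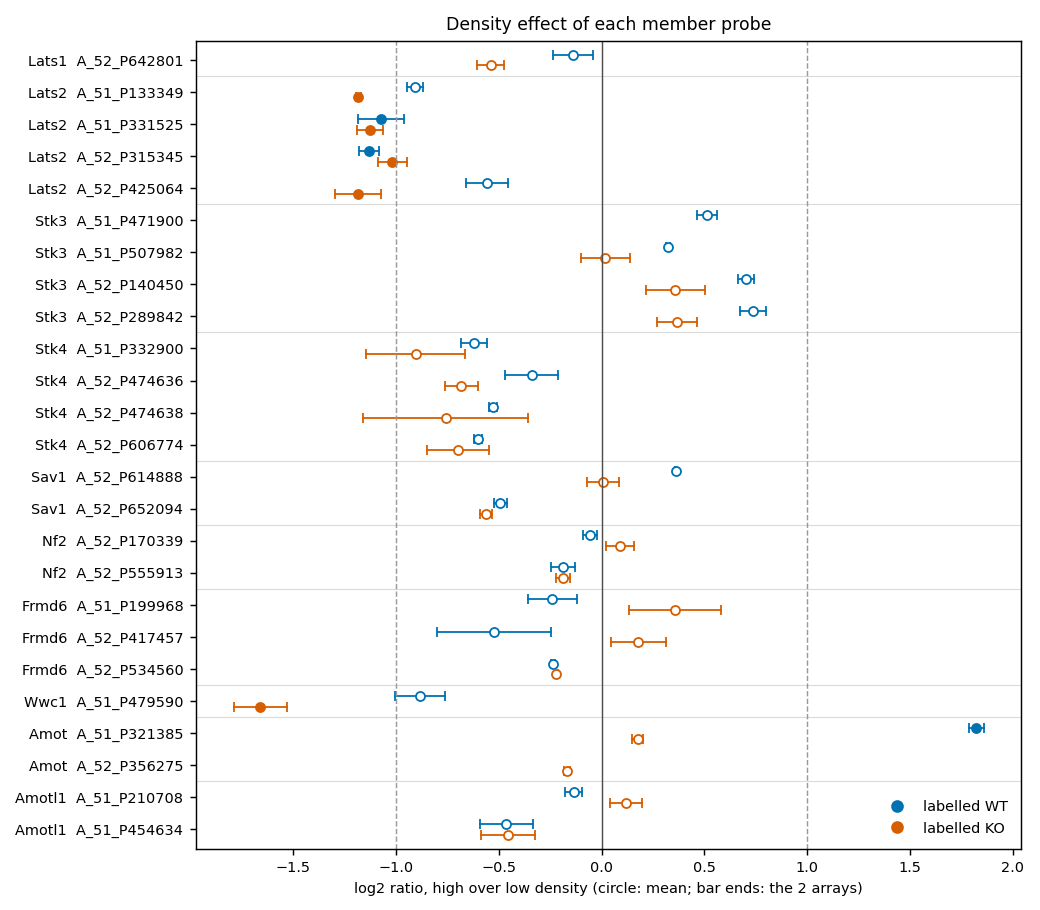
Log2 ratio of high over low density (horizontal axis) for each member probe tested, in labelled WT (blue) and labelled KO (orange). Circles are means and bar ends the 2 arrays of the dye swap; filled circles passed the 2-fold size, marked by dashed lines, with the same sign on both arrays. Lats2 and Stk4 lie below 0 in both genotypes, and Amot at 1.82 in WT and 0.18 in KO is the widest gap between genotypes.

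Amot showed the widest difference between the genotypes' density effects among the members. Angiomotin binds YAP at junctions and along actin. Its bright probe A_51_P321385 (chromosome X, 140693003 to 140693062, minus strand) gave 11.49 and 11.55 in low density WT, 13.35 and 13.34 in high density WT, 12.40 and 12.37 in low density KO, and 12.55 and 12.58 in high density KO. The KO cultures thus lay between those of WT, and no conditions overlapped. Amot signal rose 3.54-fold with density in WT (log2 ratio 1.82 ± 0.05) and gave 0.18 ± 0.04 in KO, a difference of -1.65 ± 0.09. This difference kept its sign and stayed past the size under every alternative run, from -1.58 to -1.81, while the KO value itself turned to -0.24 when each array was centred on its median without loess. Its genotype ratio of 0.86 ± 0.06 in the low density cultures became -0.78 ± 0.03 in the high density ones, opposite in sign and under the size at each. Either passed it under an alternative, at 1.12 without scaling between arrays for low density and -1.04 with the processed signal for high density. The other Amot probes were dim: A_52_P356275 was well above background in 3 of 8 channels and A_51_P515262, whose annotated span covers 9 bases, in none. A_52_P356275 gave a density ratio of -0.17 ± 0.02 in KO, where 1 of 2 arrays detected it at high density (-1.46 with the processed signal), and at low density it was at least 1.15-fold higher in KO than in WT, where it was not detected.

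Wwc1, which encodes KIBRA, a binding partner of merlin and LATS, fell with density in KO. Its single probe (A_51_P479590, chromosome 11, 35682468 to 35682527, minus strand) gave 9.75 and 9.83 in low density WT, 8.99 and 8.82 in high density WT, 10.92 and 11.20 in low density KO, and 9.39 and 9.41 in high density KO. No neighbouring conditions overlapped, and the low density KO culture stood highest. The density ratio was -1.66 ± 0.18 in KO, a 3.16-fold fall, and -0.88 ± 0.17 in WT, where it reached -1.07 with the processed signal and -1.01 on array 2. The difference of -0.78 ± 0.01 had the same sign in both dye orientations and was under the size. At low density Wwc1 was 2.41-fold higher in KO (log2 ratio 1.27 ± 0.14), and at high density the ratio was 0.49 ± 0.13.

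Nf2, Frmd6 and Amotl1 stayed under the size in every comparison, except that Amotl1 A_51_P454634 gave -1.07 for density in WT with the processed signal or the series matrix, and Frmd6 A_52_P417457 a difference of 1.11 between the arrays numbered 2 alone. Nf2 encodes merlin, which recruits LATS to the membrane, and its brighter probe A_52_P170339 (chromosome 11, 4666399 to 4666458) ranged from 8.57 to 8.66 over the 4 WT channels and from 9.01 to 9.17 over the 4 KO channels. The genotypes did not overlap at this probe, with ratios of 0.36 ± 0.03 at low and 0.51 ± 0.07 at high density, and its second probe, A_52_P555913, lay at -0.24 in each. Density ratios of both Nf2 probes were between -0.19 and 0.09. A_52_P555913 moved with the processing, to -0.57 in WT and -0.85 in KO with the series matrix and to -0.89 between genotypes at high density with the processed signal.

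Frmd6, a FERM protein related to the fly Expanded, was read by 3 probes on chromosome 12 (plus strand). A_51_P199968 (71820377 to 71820436) gave 12.13 and 12.01 in low density WT, 11.77 and 11.89 in high density WT, 12.26 and 11.94 in low density KO, and 12.39 and 12.53 in high density KO. Only the low density cultures of the genotypes overlapped. Density ratios were -0.24 ± 0.17 in WT and 0.36 ± 0.32 in KO at this probe (-0.03 in KO with median centring in place of loess), and -0.52 ± 0.39 and 0.18 ± 0.19 at A_52_P417457. The third probe, A_52_P534560, gave -0.23 and -0.22, so the probes of the gene did not share the difference between genotypes.

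Amotl1, an angiomotin paralog, was read by A_51_P210708 and A_51_P454634 on chromosome 9. The former ranged from 8.61 to 8.91 in WT and from 9.21 to 9.51 in KO, and its 2 densities overlapped within each genotype. Its genotype ratios were 0.41 ± 0.02 at low and 0.67 ± 0.04 at high density, against -0.22 and -0.21 for the other probe. Both density ratios of A_51_P454634 were -0.46, with SDs of 0.18 in WT and 0.19 in KO. Amotl1 did not share the density shift of Amot in WT at either probe (-0.14 and -0.46, against 1.82).

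**Figure D3:**
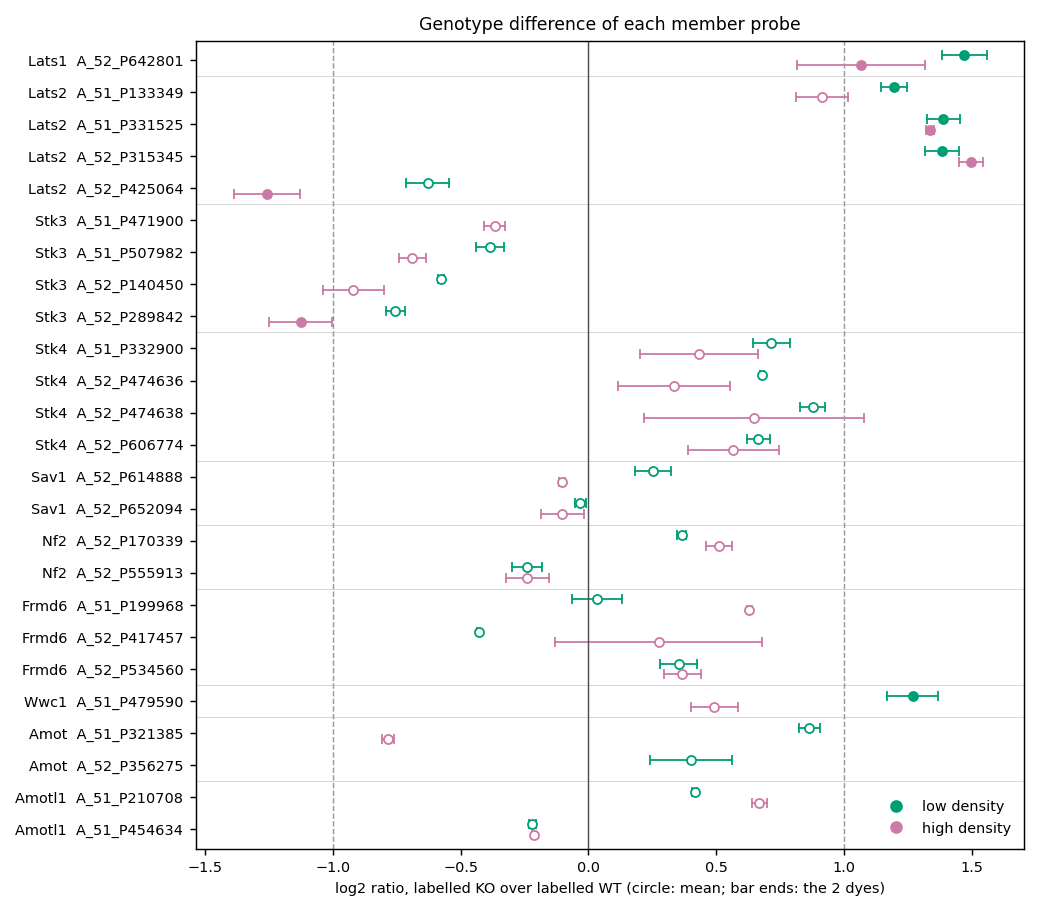
Log2 ratio of labelled KO over labelled WT (horizontal axis) for each member probe tested, at low (green) and high (pink) density. Circles are means and bar ends the 2 dyes; filled circles passed the 2-fold size, marked by dashed lines, with the same sign in both dyes. Lats1 and 3 of 4 Lats2 probes lie to the right and Stk3 to the left at either density, while Amot A_51_P321385 changes side between densities.

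Whether the genotypes shared a density effect was tested with limma on their 2 dye swap means (n = 2 culture pairs). None of the 23 member probes passed an adjusted p of 0.05, nor did any of the 21546 probes tested (0% of all probes), where the lowest adjusted p was 0.0666. At an unadjusted p under 0.05 were 13 of 23 member probes and 6391 of all probes. The lowest adjusted p-values by limma among members belonged to Lats2, at A_51_P331525 (log2 ratio -1.10, SE 0.16, adjusted p = 0.0762), A_52_P315345 (-1.07, SE 0.16, 0.0764) and A_51_P133349 (-1.04, SE 0.17, 0.0771). Wwc1 followed with -1.27 (SE 0.25, adjusted p = 0.0851), then Stk4 A_51_P332900 with -0.76 (SE 0.17, adjusted p = 0.0976). For Amot, whose genotypes differed most, limma gave 0.999 (SE 0.44, adjusted p = 0.224). The methods' t-test, which they name for differences in MEFs without giving its form, was applied here as a plain one-sample test on the same means and also called 0 probes after adjustment (2373 probes and 7 members at an unadjusted p under 0.05), and limma with an intensity trend called 133 probes and 0 members. With the 4 arrays as samples and the genotype's pair as a random block, limma called 9 members among 5526 probes: all 4 of Lats2, 2 of Stk4, and 1 each of Wwc1, Sav1 (A_52_P652094) and Stk3 (A_52_P289842). That setting treats exchanged dyes as further samples, and the estimated correlation within a pair was 0.646.

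Beyond the members, 49 other genes of the pathway were examined, of which 47 were tested in each comparison, every one by its brightest probe. In WT 9 of 47 passed the size for density (4 upward, 5 downward), and in KO 5 (3 upward, 2 downward), against the 13.3% and 9.63% of all probes given above. Their median log2 ratios were -0.10 and 0.00. The atypical cadherins Fat4 and Dchs1, which bind each other between neighbouring cells, rose together. Fat4 gave 2.82 in WT and 1.73 in KO, and Dchs1 2.11 and 2.61, although its second probe gave 0.31 and 0.16. Rassf2, which binds the MST kinases, rose by 2.81 and 1.86, with 0.21 at its second probe in KO. Rassf6 of the same family fell, with ratios of -2.03 and -2.56, as did the angiomotin paralog Amotl2, a known YAP target (-1.80 and -1.18). Amotl2 thus moved opposite to Amot in WT.

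Ajuba (Jub on the array), a LIM protein that inhibits the LATS kinases, fell in WT (-2.58), and its difference between genotypes of 1.88 was the widest upward in the list. Among 14 genes listed as activators of the kinases, with the LATS-related Stk38 and Stk38l placed among them, Map4k3 alone passed the size in WT (1.54). None of the 14 did in KO. The Map4k3 difference of -1.16, like that of Fat4 (-1.09) and of the phosphatase gene Ptpn14 (-1.01, with -0.37 as the mean of its 4 probes), was downward. The polarity gene Scrib gave 1.03. The effectors Yap1 and Wwtr1, which encode YAP and TAZ, did not pass the size for density: Yap1 gave -0.03 in WT and -0.27 in KO, and Wwtr1 0.46 and 0.67 (1.04 and 0.29 on the KO arrays), with 0.04 and 0.27 at its second probe.

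Between genotypes 8 of 47 pathway genes passed the size at low density (4 higher and 4 lower in KO) and 8 at high density (7 higher, 1 lower), against the 13.9% and 13% of all probes given above. Amotl2 was higher in KO at either density (1.22 and 1.84), as was Wwtr1 (1.11 and 1.32, with 0.48 and 0.70 at its second probe). Yap1 gave 0.99 and 0.76, just under the size at low density. The polarity gene Pals1 (Mpp5 on the array) was higher at either density (1.06 and 1.11), although its second probe gave 0.14 and 0.32. Ajuba (1.43) and Wwc2, a paralog of Wwc1 (1.33), were higher at high density. Lower in KO were Scrib (-1.45), the striatin gene Strn4 (-1.28) and the LATS-related kinase gene Stk38l (-1.27) at low density and Fat4 (-1.43) at high density.

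**Figure D4:**
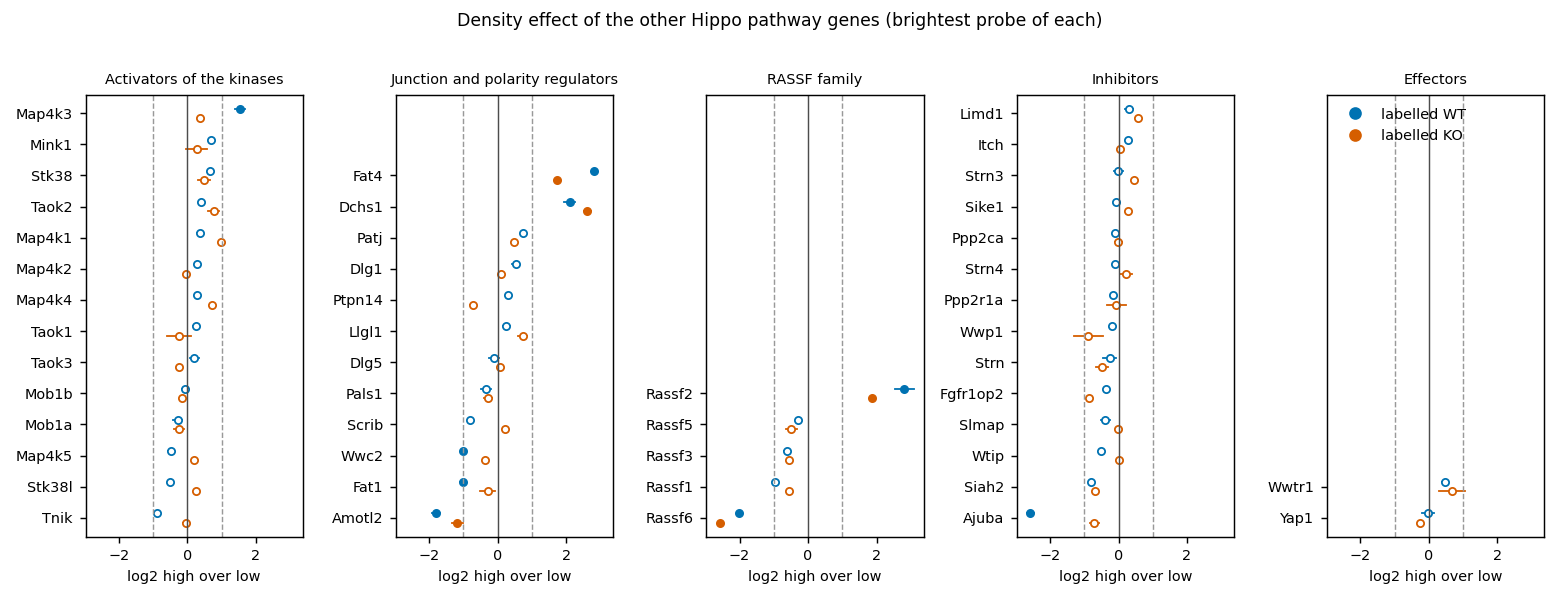
Log2 ratio of high over low density (horizontal axis) of the 47 other Hippo pathway genes tested, by list, in labelled WT (blue) and labelled KO (orange). Circles are dye swap means of the brightest probe, lines join the 2 arrays, and filled circles passed the 2-fold size (dashed lines). In WT the cadherins Fat4 and Dchs1 and Rassf2 lie farthest to the right, and Ajuba, Rassf6 and Amotl2 farthest to the left.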

How the data were processed

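The authors hybridised and scanned the arrays and extracted spot values with Agilent Feature Extraction 10.5.1.1. The deposited scanner files give mean and background intensity per dye, processed signal intensity, flags (other values of 0 or 1) and a log10 ratio of Cy5 over Cy3. The deposited series matrix holds the same log10 ratio turned to high over low density (median 0 on each array). Raw intensity was processed with limma 3.58.1 in R 4.3.3. Background was corrected by normexp (offset 50), arrays were normalized by loess with controls at weight 0, and outlier flags and controls were left out. Single channels were scaled by Aquantile for signals and genotype ratios. For density ratios a probe had to be well above background in a whole pair of arrays at 1 density or more, and for genotype ratios in both dyes in 1 genotype or more. Where a side was not detected, the fold is a lower bound against the higher of the probe's own signal and the lowest detected signal of that channel. Named pathway genes are at most the 3 largest changes per direction and comparison past the size, plus Yap1 and Wwtr1. Members and lists were chosen with earlier results of these data known. Symbols and mm8 positions are those of the array, and promoters are RefSeq's. Probes were not assigned to exons. Scripts were tested on simulated data. The number of arrays limits precision, and the swap covers technical error and, if extracts differed, their difference.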

Additional observations from a re-analysis of the deposited data

Results flagged for a closer look

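At 4 member probes the 2 WT arrays lay below 0 and the 2 KO arrays above 0 for density, and in each case the difference was not tested. Frmd6 A_52_P417457 differed by 0.7037 on the log2 scale (-0.25 and -0.80 in WT, 0.05 and 0.31 in KO), and Frmd6 A_51_P199968 by 0.5964 (-0.36 and -0.12, then 0.13 and 0.58). Amotl1 A_51_P210708 differed by 0.2539 and Nf2 A_52_P170339 by 0.1461. With median centring in place of loess the KO values of Frmd6 A_51_P199968, Amotl1 A_51_P210708 and Nf2 A_52_P170339 turned to -0.03, -0.02 and -0.04.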

How the results depend on the processing

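No member value that had passed the size changed sign under any alternative run. Runs without an array or dye, and runs that changed only the filter on dim probes, could not change such a sign. Counts of member probes past the size moved as follows. With normexp offset 0 they were 6 for density in WT, 2 for the difference of density effects (12% of all probes), and 8 and 8 between genotypes at low and high density. Agilent's processed signal gave 11 (WT), 10 (KO), 2 (difference, 14.6% of all probes), 8 (low) and 10 (high). The series matrix gave 11, 10 and 2 for density in WT, in KO and their difference, against 25.8%, 20.6% and 14.6% of all probes. A 1.4-fold size gave 14, 11, 5, 13 and 15, against 38%, 34.6%, 28.4%, 40.2% and 37.6% of all probes. Without an array or dye in turn the counts ranged from 2 to 4 (WT), 5 to 6 (KO), 1 to 2 (difference), 5 to 5 (low) and 4 to 8 (high); the 8 came without the arrays numbered 2. Over all probes these settings called 3066 and 3073 of 22591 in WT, and then 10.4% and 10.4%, 8.18% and 8.59%, 14% and 14.6%, and 15.1% and 12.2%, each first without the arrays numbered 2 and then without those numbered 1. Without scaling between arrays 7 member probes passed at low density (15.7% of all probes) and 5 at high density (15% of all probes). The test common to both genotypes called 9 members with the pair as a random block and 0 otherwise, while over all probes it called 358 with offset 0, 287 with the processed signal, 209 among probes detected in all channels, 3 with median centring, 151 without KO array 1 and 90 without WT array 1. Of single member values under the size rule 707 moved by less than the spread between arrays and 280 by more. The 707 include all runs without an array or dye and all runs that changed only the filter on dim probes. Those runs could not move a value by more than that spread. Without scaling between arrays the median genotype ratio of all probes was 0.27 at both densities, and 72.3% and 70.2% of calls were higher in KO, against 49.3% and 49.3%. Median centring, planned for the density ratios, put the share of upward density calls at 43.9% in WT (57.2% with loess) and 40.4% in KO (61.3%). For the genotype ratios it was added after seeing the data. There 51.3% of calls at low and 47.6% at high density were higher in KO. The mean of all probes in place of the brightest gave 7, 5, 4, 6 and 7 pathway genes, against 9, 5, 5, 8 and 8 of 47 by the brightest. For the difference of density effects the 5 of 47 stand beside 7.99% of all probes. A share over all genes by the mean of probes was not computed. The cause of these shifts was not tested. No paired analysis was possible because the labels number no replicates that could pair WT with KO; low and high density were paired within each array in all density ratios. Dim probes, Lats1 and 2 of Amot among them, limit what can be said of their genes.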
